A study of Mus musculus with 4 samples.

Results

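The genes described here encode the nuclear-encoded subunits of the mitochondrial respiratory chain and of ATP synthase in mouse embryonic stem cells. They were chosen by symbol: every probe set that the array's platform annotation assigned to a single gene named Nduf (series a, b, c, s or v), Sdha to Sdhd, Uqcr, Cyc1, Cox4 to Cox8 or Atp5. That gave 100 of 12488 probe sets and 72 of 8251 genes. The cells were E14tg2a, an embryonic stem cell line grown without feeder cells, either as the control line or as a line, titled Akt12, with constitutively active Akt, a kinase of growth factor signalling. Each line was measured with leukemia inhibitory factor (LIF), the cytokine that keeps such cells undifferentiated, at 3000 U/ml, and after 4 days without it. Each of the 4 groups is 1 Affymetrix array, and values of the arrays follow 1 order: the control line with and without LIF, then the Akt line with and without LIF. The sources used here do not say whether Akt12 is a single clone, which Akt form was introduced or whether the control line carries a vector.

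Oxidative phosphorylation passes electrons from NADH through complex I (the Nduf genes), or from succinate through complex II (the Sdh genes), to complex III (Cyc1 and the Uqcr genes) and on to complex IV (cytochrome c oxidase, the Cox genes). Complexes I, III and IV pump protons across the inner mitochondrial membrane, and ATP synthase, called complex V (the Atp5 genes), uses the gradient to make ATP. Most subunits are encoded in the nucleus and a few in mitochondrial DNA, so assembly needs both gene sets. Undifferentiated mouse embryonic stem cells are known for using glycolysis together with respiration.

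By complex, the 72 genes were 29 subunits of complex I, 4 of complex II, 8 of complex III, 14 of complex IV, 14 of ATP synthase and 3 genes that the symbol rule also takes in, the complex I assembly factors Ndufaf1 and Ndufaf4 and the factor Cox7a2l, which joins complexes III and IV. Intensities were quantile normalized and floored at 15.8, and a gene with several probe sets was read from the brightest by mean log2 value. Above the floor were 67 members on at least 1 array and 64 on all 4. The other 5, Atp5j2, Cox5a, Cox8a, Ndufa12 and Ndufc2, were at the floor on every array, which gives only an upper bound for the signal of those probe sets. Among the 67, Ndufa1 was above the floor only without LIF, Ndufs4 was at the floor in Akt cells without LIF, and Cox6a2, at 16.2 to 17.1 on 3 arrays, was at the floor in control cells with LIF. Intensities of different probe sets are not set against each other.

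The 4 arrays had between 5625 and 5659 genes above the floor, and their trimmed mean intensities as deposited ranged from 80.3 to 121. The ratio of the 3' to the 5' probe set of actin, which grows as RNA degrades, was 2.33, 1.66, 3.04 and 2.48. That of Gapdh was 3.03, 3.19, 3.05 and 2.46, so control cells without LIF were lowest by actin and highest by Gapdh. Of 9 embryonic stem cell markers, 8 were above the floor on every array, with a summed intensity of 10069 and 10899 with LIF against 4054 (control) and 7433 (Akt) without it. Esrrb was at the floor throughout. Without LIF, 7 of the 8 were higher in Akt than in control cells, while Nanog measured 647 in Akt and 697 in control cells. Of 8 fibroblast markers, 7 were above the floor in control cells without LIF and 4 on each other array, with a summed intensity of 575 against 221 to 269, and Postn was at the floor on all 4. Of 8 heart and skeletal muscle markers, 2 were above the floor in control cells without LIF, the fewest of any array, and 3 or 4 on each other array. The summed intensity was 839 in control cells without LIF, of which Actc1 made up 790, and 129 to 229 elsewhere. Tnnc1 was above the floor only in control cells without LIF. Myh6, Myh7 and Ckm were at the floor there and above it in control cells with LIF, and Tnnt2, Mb and Myl2 were at the floor on all 4. The part of these cells and of RNA quality in the values below was not tested.

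The members shared a pattern over the arrays that was small for most genes. Of the 64 members measured above the floor throughout, 45 (70.3%) had their lowest value in control cells without LIF, against 38.2% of all 5027 such genes, and 44 (68.8%) had their highest value in Akt cells with LIF, against 29% of all, a count that is 7 on intensities as deposited, where both Akt arrays have lower trimmed means (81.7 and 80.3) than the control arrays (121 and 97.4). Without LIF, 38 (59.4%) were lower in both lines and 7 (10.9%) were higher in both, against 27.5% and 25.5% of all genes. In both media, 44 (68.8%) were higher in Akt than in control cells and 4 (6.25%) were lower, against 29.4% and 22.7% of all genes. These counts also depend on scaling: as deposited, the member median for Akt against control with LIF is -0.32, so most members were not higher there. Fewer cells of a type and less RNA per cell cannot be told apart in these bulk samples. The heat map of the 67 genes shows the control array without LIF mostly below, and the Akt array with LIF mostly above, the mean of each gene.

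**Figure D1:**
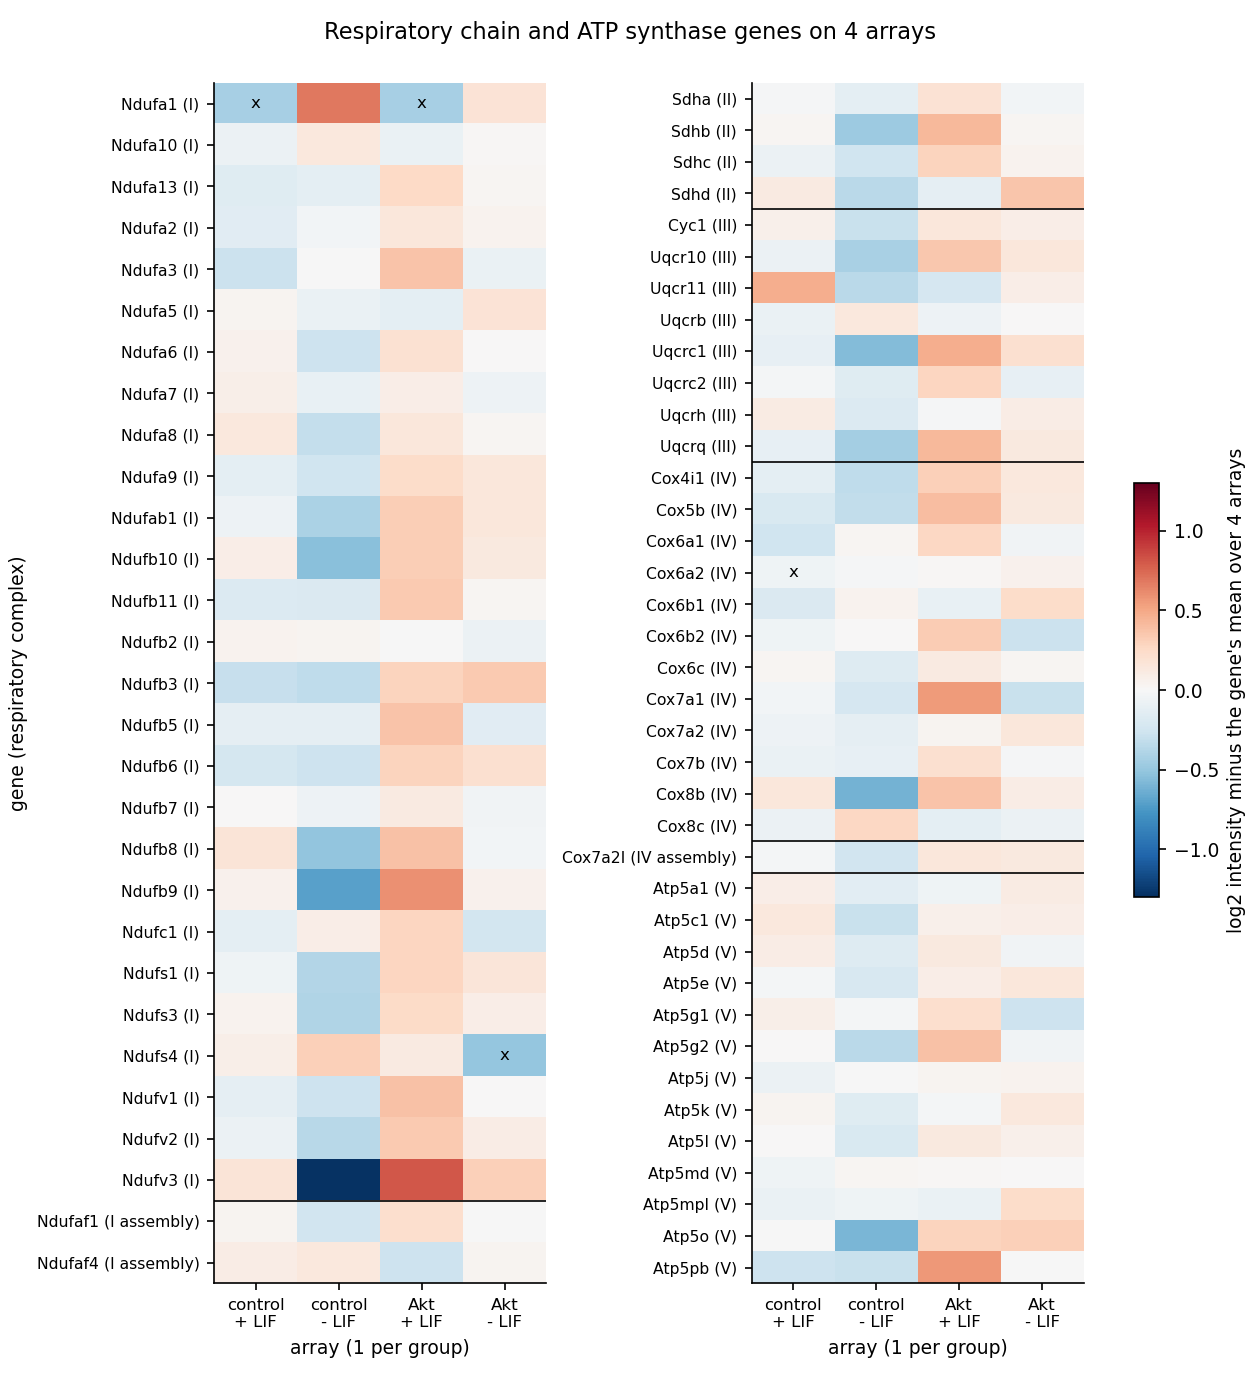
Log2 intensity of each of the 67 measured genes on each array (columns, 1 array per group) minus the mean of that gene over the 4 arrays (colour); rows are genes grouped by complex, black lines separate complexes, and x marks a value at the floor. In 45 of the 64 genes above the floor throughout, control cells without LIF are lowest, and Ndufv3 is the darkest row; on intensities as deposited that count is 30.

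Because each group is 1 array, a difference between arrays has no replicate check. A scale for its error is the spread between probe sets of the same gene, with an SD in log2 of 0.41 after LIF withdrawal in control cells, 0.35 after withdrawal in Akt cells, and 0.36 and 0.41 for Akt against control with and without LIF. Over the member genes with several probe sets above the floor it was 0.25, 0.28, 0.20 and 0.23, from 9 to 11 genes. Those spreads cover differences between probe sets, not between cultures. Differences larger than the spread over all genes were seen in 14, 17, 27 and 22 of the members. The share of all genes past that spread was not counted, so these counts do not set the members apart.

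LIF withdrawal in control cells asks what these genes did as the cells left the undifferentiated state. Most members were slightly lower without LIF: 49 of 67 were below 0 and 17 above, with a median log2 difference of -0.18, against 51.8% below 0 and a median of -0.03 over 5984 genes. The member median was -0.09 with cyclic loess and -0.55 under scaling to the hybridization controls, where 6 members were at least 2-fold different and all genes were at -0.32. Members at least 2-fold different were 1 lower, the complex I subunit Ndufv3, and 1 higher, Ndufa1, while differences of that size downwards were seen in 6.4% of all genes and upwards in 7.39%. At 1.5-fold, 7 were lower and 1 higher, against 17.8% and 16.4% of all genes, so differences of that size were not more frequent among the members. Over the brightest 25% of all genes, where 47 members lie, the median was -0.12, and over those 47 members it was -0.19.

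Complex I holds the gene with the largest difference. Ndufv3, an accessory subunit at the NADH-binding tip, had normalized intensities of 123, 44.9, 191 and 136. Control cells without LIF stood far below the other 3 arrays. The difference after withdrawal was 2.74-fold in control cells, a log2 difference of -1.45, and -0.49 in Akt cells. A single probe set measured this gene, so no second one checks it.

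Promoter sequences are shown for Ndufv3 and for 2 members whose responses to LIF withdrawal had opposite signs in the lines, Uqcr11 and Sdhd. The 250 bases before the annotated start are taken from RefSeq, build GRCm38.p6, at chr17:31519865-31520114 on the plus strand, chr10:80406822-80407071 on the minus strand and chr9:50603850-50604099 on the minus strand, 5′ to 3′ in the direction of transcription. Capitals mark matches to CGCNTGCGC, a core of the sites of nuclear respiratory factor 1 (NRF-1), or to CCGGAAG, an ETS-type core of the GABPA sites, on either strand; both factors are known regulators of respiratory genes. Ndufv3 holds neither in this window.
Ndufv3: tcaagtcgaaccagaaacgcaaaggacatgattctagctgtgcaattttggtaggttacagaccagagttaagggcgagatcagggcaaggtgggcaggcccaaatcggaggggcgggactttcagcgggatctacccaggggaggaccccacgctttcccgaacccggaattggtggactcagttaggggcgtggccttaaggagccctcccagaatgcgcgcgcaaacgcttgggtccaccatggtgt
Uqcr11: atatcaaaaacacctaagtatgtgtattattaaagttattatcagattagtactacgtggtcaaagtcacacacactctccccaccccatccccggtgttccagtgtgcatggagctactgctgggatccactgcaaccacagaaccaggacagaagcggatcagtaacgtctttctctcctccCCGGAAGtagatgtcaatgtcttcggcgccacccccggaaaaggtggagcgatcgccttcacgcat
Sdhd: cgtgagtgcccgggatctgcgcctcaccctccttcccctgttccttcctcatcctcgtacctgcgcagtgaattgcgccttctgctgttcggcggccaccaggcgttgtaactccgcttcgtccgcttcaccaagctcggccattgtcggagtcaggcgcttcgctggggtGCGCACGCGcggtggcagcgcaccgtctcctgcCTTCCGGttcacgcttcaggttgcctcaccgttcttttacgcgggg

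A promoter was matched for 58 of the 72 members, each 250 bases before to 50 bases after a start. The NRF-1 letters were in 15 of the 58 (25.9%), against 9.63% of 17492 protein-coding genes, and the GABPA letters in 16 (27.6%), against 12.9%. The YY1 letters AAGATGGCG were in 5, Atp5j, Atp5j2, Ndufa9, Ndufc1 and Ndufs4, 8.62% of the 58 against 2.14% of all. A motif counted on either strand, motifs could overlap, and a gene with several starts counted once. Matches describe letters, not bound sites. Atp5k, Atp5l, Cox6a1, Sdhd and Uqcr11 held both the NRF-1 and the GABPA letters; the NRF-1 match of Uqcr11 spans the start and so runs past the stretch printed above.

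The 4 core subunits of complex I on the array were all lower in control cells without LIF. Ndufs1, an iron-sulfur subunit, measured 496 with LIF and 394 without, a log2 difference of -0.33. Ndufs3, of the matrix arm, measured 337 and 249 (-0.44), and Ndufv2, an iron-sulfur partner of the NADH-binding subunit, measured 484 and 400 (-0.28). Ndufv1, the NADH-binding subunit itself, measured 418 and 376, a smaller difference of -0.15; a second probe set of Ndufv2 gave 0.09. Only the difference of Ndufs3 exceeds the probe set SD over all genes of 0.41.

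Accessory subunits of complex I spread more widely, from -1.45 to 1.11 with a median of -0.05 over 23 genes. Ndufb9 measured 672, 396, 971 and 669.7, and Ndufb8 measured 459, 286, 531 and 400.0. In both genes the control array without LIF was lowest and, after normalization, the Akt array with LIF highest. As deposited, control cells with LIF were highest in both genes, at 875 for Ndufb9 and 596 for Ndufb8. Their log2 differences in control cells were -0.76 and -0.68, and that of Ndufb10 was -0.64. Ndufa1, a membrane subunit, was the only member at least 2-fold higher, at least 2.16-fold, with 34.1 without LIF against the floor. Its other probe set was at the floor on all arrays, and as a gene that passed the floor only without LIF it could differ only upwards.

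The 4 succinate dehydrogenase genes were all lower after withdrawal in control cells (median -0.33). Sdhb, the iron-sulfur subunit, measured 357, 253, 471 and 357 a log2 difference of -0.50. Sdhd, a membrane anchor, measured 445, 322, 379 and 529, a difference of -0.47. Sdhc, the other anchor, and the flavoprotein gene Sdha differed by -0.18 and -0.11.

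Complex III had 7 of 8 genes lower, with a median of -0.34. Uqcr11, a small subunit, measured 344, 194, 213 and 263. Control cells with LIF were its highest array, unlike most members, and its difference was -0.83. Uqcrc1, a core protein of the complex, measured 421, 308, 629 and 524 (-0.45), Uqcrq and Uqcr10 differed by -0.34 and -0.35, and Uqcrb was the exception at 0.22, which became -0.18 under scaling to the hybridization controls. Cyc1, the cytochrome c1 gene that passes electrons on to cytochrome c, measured 2674, 2090, 2844 and 2714, a difference of -0.36, but its second probe set gave 0.57.

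In control cells without LIF, the 12 measured complex IV genes had a median of -0.04, between -0.76 for Cox8b and 0.35 for Cox8c. In ATP synthase the median was -0.19 over 13 genes, of which 10 were below 0. Atp5o, the stalk subunit known as the oligomycin sensitivity conferring protein, measured 533, 355, 656 and 664, a difference of -0.59 in control cells. Atp5c1, the gamma subunit of the rotor, was at -0.42, and its second probe set gave -0.61. Another probe set, annotated to both Atp5c1 and Atp5c1-ps and so outside the symbol rule, gave -0.01. Atp5md, Atp5j and Atp5mpl, small subunits of the membrane part or stalk, were between 0.03 and 0.08, and Atp5md became -0.29 when arrays were scaled to the hybridization controls.

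**Figure D2:**
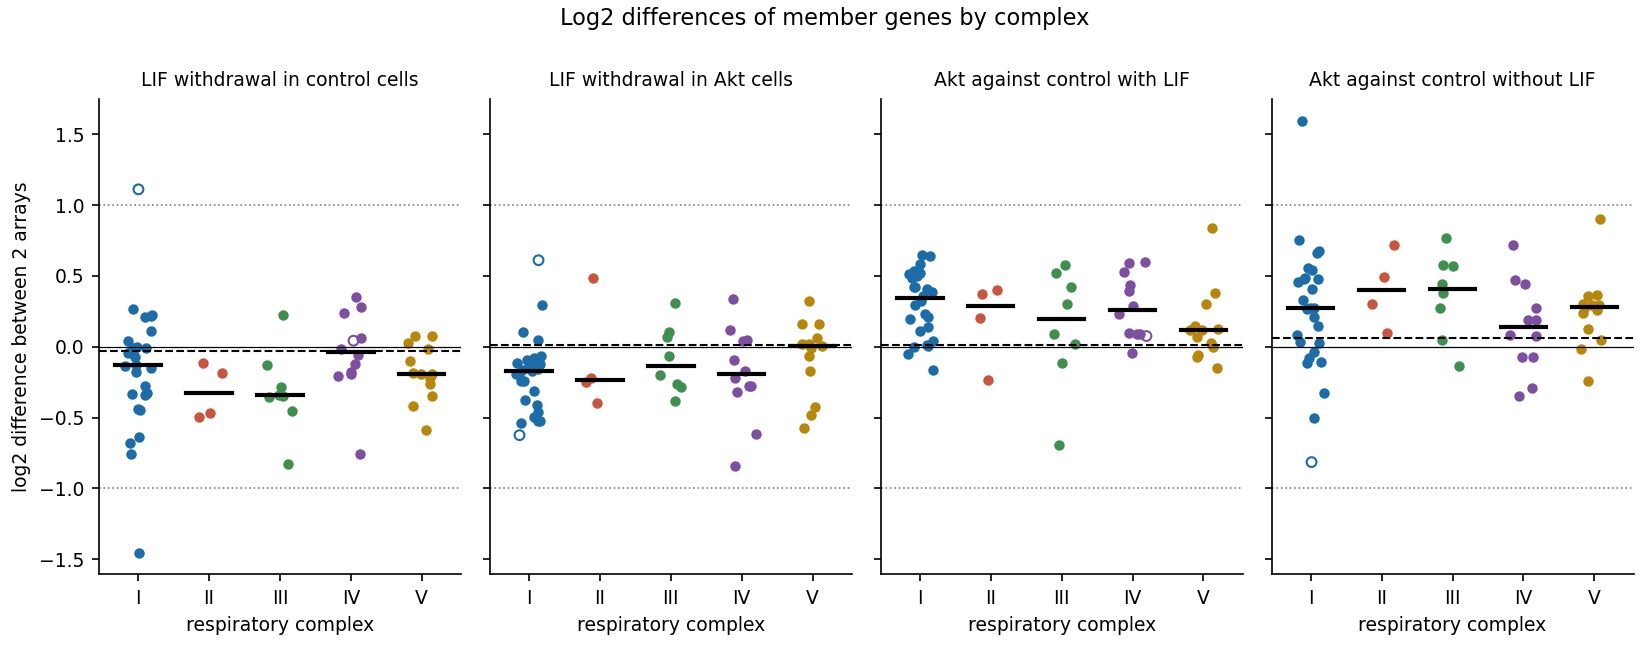
Log2 difference between 2 arrays (vertical axis) of each measured gene (points) by complex in the 4 comparisons; thick bars are medians of a complex, the dashed line is the median of all genes, dotted lines mark 2-fold, open circles are genes at the floor on 1 of the 2 arrays, and the 3 assembly factors are not drawn. Of all these genes, Ndufv3 and Ndufa1 lie beyond 2-fold.

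Withdrawal of LIF from Akt cells gave no member at least 2-fold different, where such differences were seen upwards in 3.01% and downwards in 3.65% of 5945 genes. The median of 67 members was -0.16, with 47 below 0, against 0.01 over all genes and 0.03 over the brightest 25%. Under scaling to the hybridization controls it was -0.34, with all genes at -0.13. At 1.5-fold, 3 were lower, Cox7a1, Cox6b2 and Ndufs4, and Ndufa1 was higher, against 10.7% and 10.8% of all genes. Complex I had 23 of 27 genes below 0 and a median of -0.17, complex II a median of -0.24, complex III of -0.13 and complex IV of -0.20. ATP synthase stood at 0.01, with 7 of 13 genes above 0.

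The member furthest down was Cox7a1, a muscle isoform of a complex IV subunit, with 28.1 and 24.8 in control cells with and without LIF and 42.4 and 23.6 in Akt cells with and without LIF. After normalization the Akt array with LIF was the one apart, and the log2 difference in Akt cells was -0.85. As deposited, the signals were 33.6, 27.4, 35.5 and 20.1, so control cells with LIF were close to Akt cells with LIF. The general counterpart of Cox7a1, Cox7a2, differed by 0.12. Cox6b2, a testis isoform, measured 165, 172, 216 and 141 (-0.62 in Akt cells), and a second probe set gave -1.54.

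Other complex I genes lower in Akt cells without LIF were Ndufb9 (-0.54), Ndufb5 (-0.53) and Ndufc1 (-0.52). Ndufb5 measured 1596 on both control arrays, 2239 in Akt cells with LIF and 1556 without. After normalization the gene thus stood high on a single array. As deposited it measured 2009, 1578, 1918 and 1360, with control cells with LIF highest. Ndufs4, an accessory subunit, went from 24.3 to the floor, at least 1.54-fold lower. Sdhd was the member furthest up among those measured on both arrays, from 379 to 529 (0.48), followed by Cox6b1 (0.33), Atp5mpl (0.32) and Uqcr11 (0.31). In ATP synthase, Atp5pb, the b subunit of the stalk, was lowest at -0.57, with weak signals of 37.2 and 25. Atp5g2, 1 of the genes for the c subunit of the rotor ring, measured 516 and 384 (-0.43), and Atp5g1, another gene for the same subunit, 26.6 and 19.1 (-0.48).

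Set side by side, the responses of the lines had the same sign in 45 of 64 members, 38 down and 7 up, and opposite signs in 18 (28.1%), against opposite signs in 46.7% of all genes. Uqcr11, Ndufv3 and Sdhd had the largest positive differences between the responses, Akt minus control, at 1.14, 0.96 and 0.95, and Ndufc1, Ndufa3 and Cox6b2 the largest negative, at -0.74, -0.73 and -0.68. With 4 arrays the difference between responses has no residual error and was not tested.

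**Figure D3:**
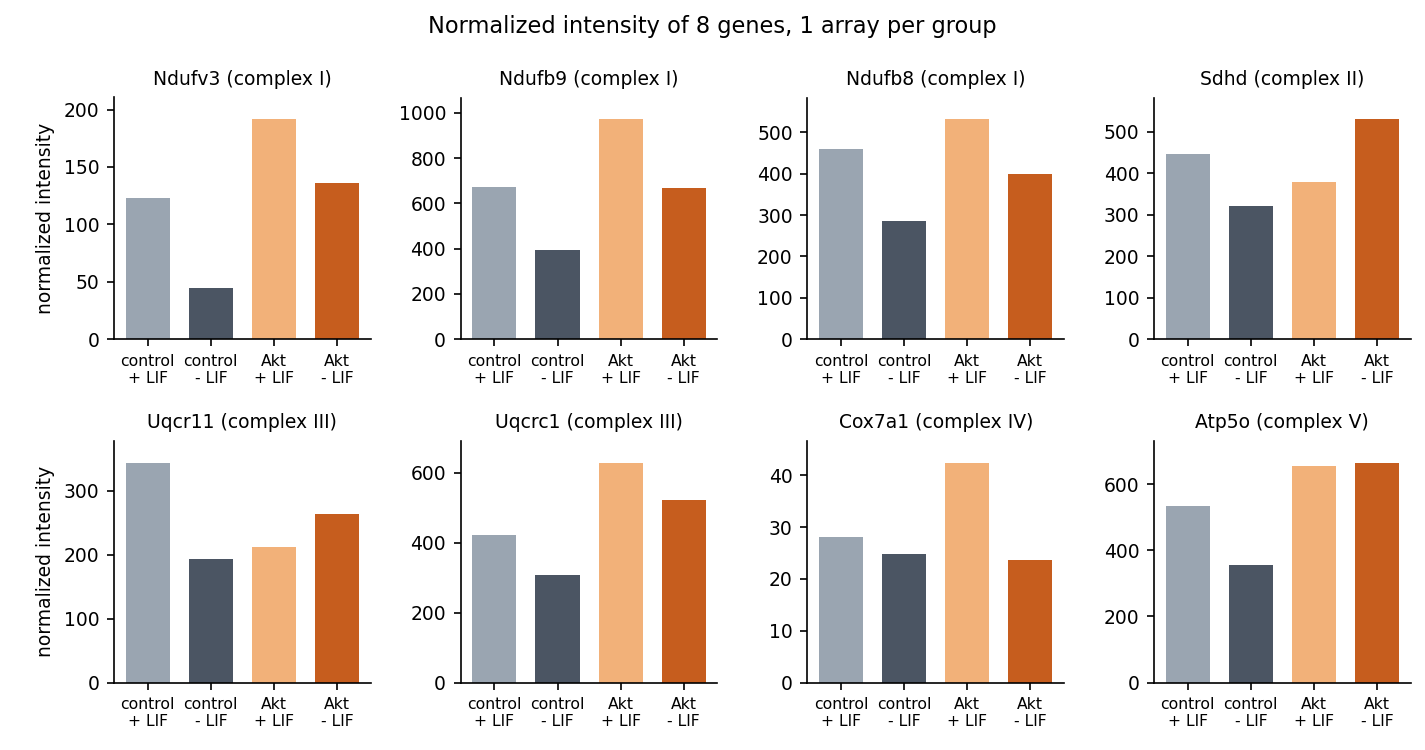
Normalized intensity (bars, axis from 0) of 8 genes on the 4 arrays, with no error bars because each group is 1 array. After normalization, control cells without LIF are lowest in Ndufv3, Ndufb9, Ndufb8, Sdhd, Uqcr11, Uqcrc1 and Atp5o, and Cox7a1 is high only in Akt cells with LIF. As deposited, Uqcr11 is lowest in Akt cells with LIF (183, against 200 in control cells without LIF). Cox7a1 as deposited is 33.6 in control and 35.5 in Akt cells with LIF.

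Akt cells with LIF were set against control cells with LIF to see how the lines differed before withdrawal. The comparison shares an array with each of the withdrawal comparisons, so its values are not independent of theirs. Members were mostly higher in Akt cells: 55 of 66 were above 0, with a median of 0.21, against 50.7% and 0.01 over 5938 genes and -0.02 over the brightest 25%; on intensities as deposited the median is -0.32 and that of all genes -0.52, so the sign holds only relative to all genes, by 0.20. None was at least 2-fold different, where 3.5% of genes were higher and 3.64% lower. At 1.5-fold, 6 were higher and 1 lower, against 11.5% and 11.8%. All 5 complexes had a median above 0, led by complex I at 0.34 with 23 of 26 genes above 0 and followed by complex II at 0.29, complex IV at 0.26, complex III at 0.20 and ATP synthase at 0.12.

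The 6 genes at least 1.5-fold higher in Akt cells with LIF were Atp5pb (0.84), Ndufa3 (0.65), Ndufv3 (0.64), Cox5b (0.60), Ndufb3 and Cox7a1 (0.59 each). Cox5b, a nuclear-encoded subunit of complex IV, measured 724, 666, 1098 and 906. Ndufb3 measured 509.6, 500.1, 766 and 791. Both Akt arrays were above both control arrays in these 2 genes after normalization. As deposited, with 932 and 664 in control cells with LIF against 758 and 663 in Akt cells without it, they were not, and the difference of Cox5b with LIF became 0.04. Ndufa3 measured 306, 368, 480 and 348, and after normalization stood apart only in Akt cells with LIF. As deposited it measured 393, 365, 419 and 292, and the difference with LIF became 0.09. Its second probe set gave 0.42 after normalization. Uqcr11 was the member furthest down at -0.69, and Ndufaf4 (-0.37), Sdhd (-0.23), Ndufa5 (-0.16) and Atp5a1, the alpha subunit of ATP synthase (-0.15), were also below 0.

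Without LIF, Akt cells were again mostly above control cells. Of 67 members 52 were above 0, with a median of 0.27, against 55.0% and 0.06 over 6009 genes and 0.13 over the brightest 25%. On intensities as deposited the median was 0.034, with all genes at -0.23. Ndufv3 was 3.03-fold higher and was the only member at least 2-fold different, against 5.87% of genes higher and 8.12% lower. At 1.5-fold, 8 were higher and 1 lower, against 16.7% and 14.9%. This comparison shares the array of control cells without LIF with that of withdrawal in control cells, so genes low on that array enter both.

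Complexes II and III had the highest medians without LIF, 0.40 and 0.41, with all 4 and 7 of 8 genes above 0. ATP synthase followed at 0.28 with 11 of 13, complex I at 0.27 with 20 of 27 and complex IV at 0.14 with 8 of 12. After Ndufv3, the members furthest up were Atp5o (0.90), Uqcrc1 (0.77), Ndufb9 (0.76), Sdhd and Cox8b (0.72 each), Ndufb10 (0.68) and Ndufb3 (0.66). The 4 core subunits of complex I, Ndufs1, Ndufs3, Ndufv1 and Ndufv2, were between 0.27 and 0.54. Ndufs4 was at least 1.76-fold lower, and Ndufa1 had a difference of -0.50 between weak signals.

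Terms common to both lines or both media were fitted with limma over 6258 genes, with the difference between the lines' responses as the error. No member passed an adjusted p of 0.05 (limma, Benjamini-Hochberg over all genes), either for LIF withdrawal over both lines, where 19 genes (0.304%) did, or for Akt against control over both media, where 39 (0.623%) did. At an unadjusted p under 0.05 there were 2 of 67 members for LIF, Ndufv3 and Ndufa1, and 1 for Akt, Ndufv3, where 9.32% and 9.64% of all genes reached it. Ndufa1 was at the floor on both arrays with LIF, so its LIF term could only be positive and its limma p-value rests partly on the floor. Ndufv3 had a fitted log2 difference of -0.97 ± 0.36 (SE) for withdrawal, with a limma adjusted p of 0.42, and of 1.12 ± 0.36 for Akt, with a limma adjusted p of 0.27; it was lower without LIF in 2 of 2 lines and higher in Akt cells in 2 of 2 media. With a prior variance that follows intensity, no member passed either, and 3 and 4 had an unadjusted p under 0.05. The median SE of a member was 0.32, larger than most of their differences, so a shift of the size seen here was not detectable gene by gene.

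Isoforms of the same subunit were read from separate probe sets. Of the tissue isoforms of complex IV, the muscle forms Cox7a1, Cox8b and Cox6a2 had signals at or not far above the floor, at most 42.4, 51.0 and 17.1, and the testis forms Cox6b2 and Cox8c measured 141 to 216 and 85 to 112. Cox8b, whose second probe set was at the floor, measured 43.5, 25.6, 51.0 and 42.1, and Cox8c measured 87.8, 112, 85 and 87.7. Control cells without LIF were the low array for Cox8b and the high one for Cox8c. Of the general forms, Cox6a1 measured 1510, 1837, 2178 and 1744, with control cells with LIF lowest after normalization but highest as deposited (1869). Cox4i1 measured 144, 125, 195 and 173, with a second probe set near the floor throughout. The median difference of the 7 measured general forms was -0.06 and -0.17 after withdrawal in control and Akt cells, and 0.29 and 0.19 for Akt against control with and without LIF.

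Other probe sets of the same gene bore out some members and not others. Of the 72 genes, 21 had several. The 3 brighter probe sets of Atp5d, the delta subunit, differed by -0.07, -0.17 and -0.27 in control cells, and those of Ndufb2 by -0.01 and 0.11. Probe sets of Cyc1 had opposite signs in all 4 comparisons, and those of Atp5l in both comparisons of the lines (0.13 and -0.28 with LIF, 0.26 and -0.16 without). For 18 genes the probe set used has a letter before its ending _at, a mark the manufacturer gives to probe sets that may be shared between transcripts or were designed outside its usual rules; Cox6a1, Cox6c, Atp5g2, Ndufa3 and Ndufb5 are among them, and related transcripts could add to their signal.

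Among other mitochondrial genes, the mitochondrial ribosome, which translates the subunits encoded in mitochondrial DNA, was lower in control cells without LIF. Of 58 measured ribosomal genes, 51 were below 0 after LIF withdrawal in control cells, 8 were at least 2-fold lower (against 6.4% of all genes) and none 2-fold higher, with a median of -0.50 against -0.18 for the members. The genes furthest down were Mrpl12 (-1.40), Mrpl15 (-1.34), Mrps10 (-1.28) and Mrps11 (-1.15). After withdrawal in Akt cells the median was 0.06 (-0.10 under scaling to the hybridization controls), against -0.16 for the members, with Mrps10 at least 2-fold lower (-1.01). Akt against control gave 0.08 with LIF and 0.59 without, which became -0.50 and 0.29 on intensities as deposited. Without LIF, 6 of 58 were at least 2-fold higher, against 5.87% of all genes.

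**Figure D4:**
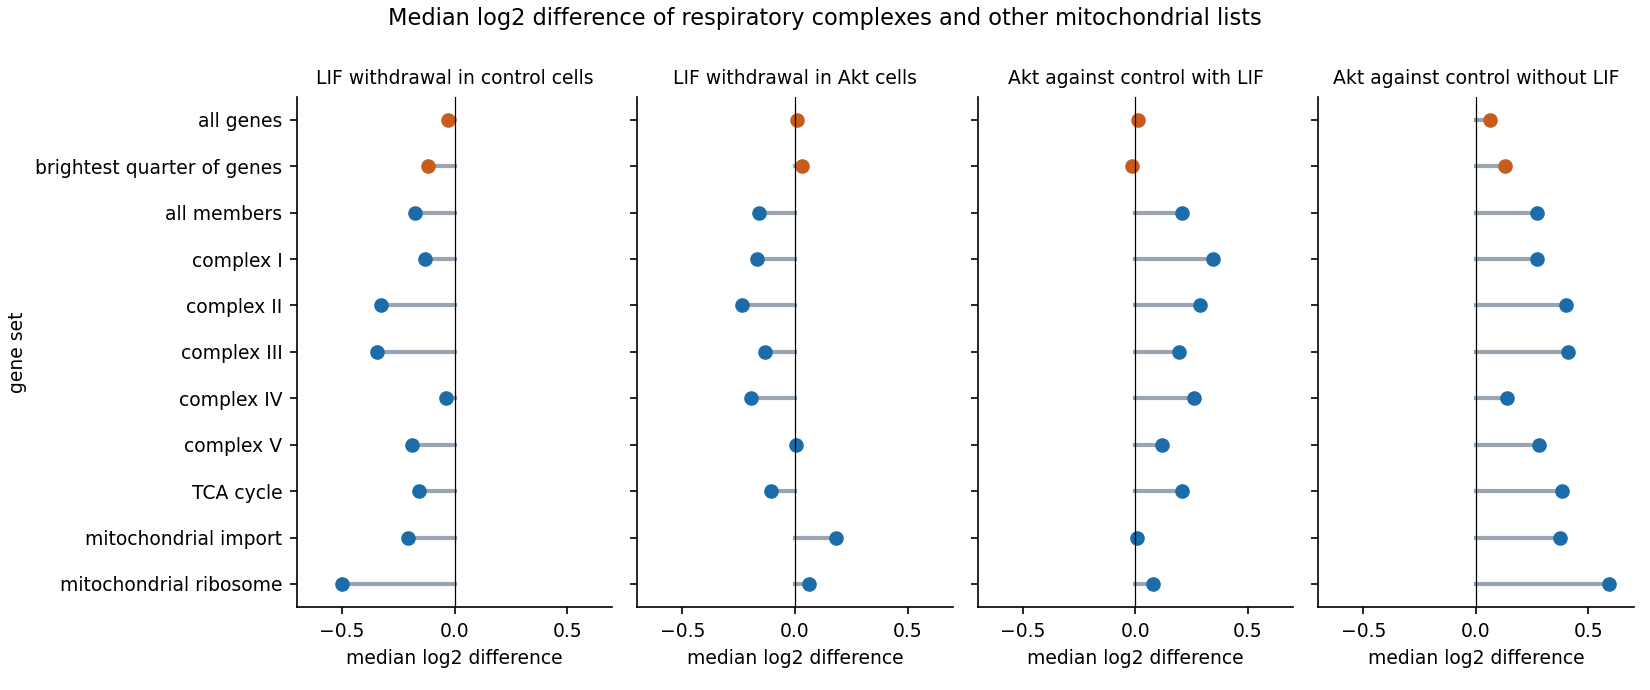
Median log2 difference (horizontal axis) of each gene set (rows) in the 4 comparisons, with all genes and the brightest 25% in orange and respiratory complexes and other mitochondrial lists in blue. Mitochondrial ribosome genes are at -0.50 and 0.59 in the first and last panels and at 0.06 and 0.08 in the others, the 0.08 becoming -0.50 on intensities as deposited and the 0.06 becoming -0.10 under scaling to the hybridization controls, while all members together are at -0.18, -0.16, 0.21 and 0.27; the 0.21 becomes -0.32 on intensities as deposited.

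The tricarboxylic acid (TCA) cycle, which supplies NADH and succinate to the chain, resembled the members in its medians, at -0.16, -0.11, 0.21 and 0.38 in the 4 comparisons over 12 genes, none of them 2-fold different; the value of 0.21 becomes -0.37 on intensities as deposited. All 12 were below 0 after withdrawal in control cells, from -0.03 for Cs to -0.70 for Idh3g. The 17 genes of mitochondrial protein import had medians of -0.21, 0.18, 0.005 and 0.37, of which the third became -0.61 and the last 0.09 on intensities as deposited, and the first pair -0.65 and 0.02 under scaling to the hybridization controls. In this list, the small import chaperone genes Timm9 (-1.50) and Timm8a1 (-1.14) were at least 2-fold lower in control cells without LIF. After withdrawal in control cells, 6.4% of all genes were lower by that size. Of 10 measured assembly factors outside the symbol rule, Sdhaf2, which helps attach flavin to Sdha, was at -1.07 and Lrpprc, which stabilises mitochondrial transcripts, at -0.97 in that comparison, around a median of 0.02.

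Of 11 measured regulators of mitochondrial biogenesis, 2 were at least 2-fold lower in control cells without LIF and none higher, with a median of -0.28. Over all genes, 6.4% were lower and 7.39% higher by that size. The 2 regulators were the coactivator gene Pprc1 (-1.27) and the mitochondrial RNA polymerase gene Polrmt (-1.09). Gabpb1, which encodes the partner of GABPA, was 2-fold lower in Akt cells without LIF (-1.004), and Myc (-1.29) and Pprc1 (-1.21) were lower in Akt cells with LIF than in control cells. Polg2, an accessory subunit of the mitochondrial DNA polymerase, was higher in Akt cells without LIF (1.16). Tfam and Ppargc1a were at the floor on all arrays. Pyruvate dehydrogenase subunits Pdha1, Pdhb and Dlat differed by -0.21, 0.06 and -0.41 after withdrawal in control cells, and Pdk1, a kinase that inhibits that enzyme, was 2.79-fold lower there and 2.29-fold higher in Akt than in control cells without LIF. The 7 measured genes for cytochrome c, carriers and pores had a median of 0.09 after withdrawal in control cells. Slc25a3, the phosphate carrier gene, was at the floor in control cells with LIF and between 33.4 and 40.2 on the other arrays. It could thus differ from control cells with LIF only upwards, by at least 2.12-fold in control cells without LIF and at least 2.55-fold in Akt cells with LIF. Without LIF, Slc25a3 was 1.19-fold higher in Akt than in control cells.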

How the data were processed

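The deposited table holds 1 intensity on a linear scale per probe set and array, as the values show; the sources used here name no software, scaling or background step. The 66 array controls were set aside, and the other 12422 probe sets were passed to limma 3.58.1 (R 4.3.3) for quantile normalization, floored at the 40th percentile (15.8) and put on a log2 scale. Quantile normalization removes a shift common to most genes. The platform annotation paired 10833 probe sets with 1 gene; symbols were updated through a RefSeq table of GRCm38.p6, which altered no member's name.

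Differences of 2 single arrays were counted at 2-fold and 1.5-fold. A model with terms for line and LIF (lmFit, eBayes, two-sided, 1 residual degree of freedom and 8.69 prior degrees) was fitted over 6258 genes. The error in its p-values is the difference between the lines' responses over these 4 arrays only. It does not measure a spread between replicate cultures, as each group holds 1 array. Precision is limited by how few arrays there are. The steps were tested on simulated data.

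Members and lists were chosen with earlier results of these data known. Values are given for members past 2-fold, for the highest and lowest of each complex and comparison, for isoform sets and for genes with several probe sets that disagree; in other lists, for up to 4 genes past 2-fold, beside a few others chosen after their values were seen. Motif letters were shortened after counts with longer forms had been seen. Alternatives were other scalings, floors, probe set choices and a member list without assembly factors.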

Additional observations from a re-analysis of the deposited data

Results flagged for a closer look

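The responses of 2 genes to LIF withdrawal had opposite signs in the lines, each at least 0.3 in log2. The difference between the lines, Akt minus control, was 0.95 for Sdhd, which went from 445 to 322 in control cells and from 379 to 529 in Akt cells. For Uqcr11 it was 1.14, with 344 to 194 in control cells and 213 to 263 in Akt cells. Seen as Akt against control, the same value of 1.14 separates the media for Uqcr11, and for Ndufc1 the difference without minus with LIF was -0.74, with Akt cells at 601 against 454 with LIF and at 418 against 525 without it. Under scaling to the hybridization controls the responses in Akt cells were 0.296 for Sdhd and 0.14 for Uqcr11, and as deposited that of Uqcr11 was 0.28, so both kept their sign but fell short of the size that set them apart under at least 1 scaling. As deposited, Ndufc1 measured 516 in Akt and 590 in control cells with LIF, so its difference with LIF changed sign. With 1 array per group these differences were not tested.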

How the results depend on the processing

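The median of the members relative to that of all genes kept its sign and moved by less than 0.1 in all 4 comparisons under each of 9 alternatives, between -0.23 and -0.08 for withdrawal in the control line, -0.21 and -0.13 in the Akt line, and 0.19 and 0.22 (with LIF) and 0.19 and 0.28 (without LIF) for Akt against control. The medians themselves moved with scaling. Scaled to the hybridization controls, where the median of all genes after withdrawal in control cells was -0.32, they were -0.55 and -0.34 after withdrawal from the control and Akt lines and 0.10 for Akt against control with LIF, with 6 members 2-fold different in the first comparison and 2 for Akt against control without LIF. With intensities as deposited, where the median of all genes for Akt against control with LIF was -0.52, the member median there reversed to -0.32 and that of TCA cycle genes to -0.37. The member median was then -0.48 after withdrawal in control cells and 0.034 for Akt against control without LIF, 5 and 1 members were 2-fold different after withdrawal in control cells and for Akt against control with LIF, and 7 members were highest in Akt cells with LIF. Cyclic loess, chosen after seeing the data, gave a median of -0.09 after withdrawal in control cells. A floor at the 20th percentile gave 4, 1, 3 and 3 members 2-fold different in the order of the comparisons, and a floor at the 60th percentile or the mean of all probe sets of a gene left 1 in the first, without Ndufa1. limma called no member under any alternative. Probe sets near the floor limit what can be said of weak genes such as Ndufa1, Ndufs4, Cox7a1 and Atp5pb. No paired analysis was possible because each group holds 1 array and the labels give no replicate numbers.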

Other observations

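Among 16 measured glycolysis genes, LIF withdrawal in control cells left 2 lower and 1 higher by at least 2-fold, with a median of -0.44. Over all genes, 6.4% were lower and 7.39% higher by that size. Pfkp, a phosphofructokinase gene, measured 161 and 23.9 in control cells with and without LIF and 365 and 55.3 in Akt cells, lower without LIF in both lines. The glucose transporter gene Slc2a3 measured 711 and 2030 in control cells and 794 and 462 in Akt cells, so control cells without LIF were the high array. The 8 measured genes of antioxidant defence had medians of -0.52 and -0.16 after withdrawal in control and Akt cells, with 1 and 2 genes above 0. At least 2-fold lower were 2 and 1 of them, against 6.4% and 3.65% of all genes. Sod2, the mitochondrial superoxide dismutase gene, had log2 differences of -1.64 in control cells and -1.17 in Akt cells. Those of Gpx4, a glutathione peroxidase gene, were -1.25 and -0.76.

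Of the probe sets annotated to several genes, 10 include a respiratory chain gene and lie outside the symbol rule. The brighter of the pair shared by Cox7c and a predicted gene measured 3782, 3815, 3782 and 3668 on the control arrays with and without LIF and the Akt arrays with and without LIF. The other probe set of that pair measured 1751, 1379, 1911 and 1784, a log2 difference of -0.34 after withdrawal in control cells. The probe set shared by Ndufa11 and Ndufa11b, of complex I, measured 458, 356, 552 and 453 in the same order.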
